A study of Mus musculus with 28 samples.

Results

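Donor cells, the dendritic cells that came inside a transplanted mouse kidney, were compared between the medulla, the inner kidney, and the cortex, the outer kidney, 3 days after transplantation. The comparison rests on the 6 arrays labelled as allograft donor cells, 3 of medulla and 3 of cortex, out of 28 arrays of renal dendritic cells. These cells are labelled BALB/c and were sorted for CD45.2, CD11c and MHC class II. Cortex and medulla of mice 6, 7 and 8 are replicates 1, 2 and 3, so each replicate number joins both regions of 1 graft, and arrays are named below by region and replicate. Every difference is medulla minus cortex on the log2 scale. Cells of 2 other kinds serve for comparison. Homeostatic BALB/c cells came from the cortex and medulla of healthy, untransplanted kidneys of 4 mice (8 arrays). Host cells, labelled C57BL/6 and sorted for CD45.1, came from the same 3 grafts as the donor cells (6 arrays). Homeostatic C57BL/6 cells of cortex and medulla (4 arrays of each region) are in none of the differences tested here. They are part of the fit over all 28 arrays and so enter its estimate of spread. All cells were freshly sorted after enzymatic digestion of the kidney. The labels used here give neither sex nor age nor the genotype that carries CD45.1, and they do not say whether a graft's mouse number stands for the donor or the recipient animal.

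Kidney dendritic cells and macrophages form a network around the tubules, take up material from them and present antigen to T cells. Donor cells carry the donor's MHC molecules and can be recognised directly by host T cells. T cells and natural killer cells that respond secrete interferon-gamma, which acts through its receptor and the kinases JAK1 and JAK2. Its target genes include the chemokines that draw activated T cells, the guanylate-binding proteins and immunity-related GTPases that attack intracellular microbes, and proteins of antigen presentation. The cortex is filled with proximal tubules, which reabsorb most filtered solutes and burn fatty acids. The medulla holds the loops of Henle and collecting ducts in a salty, poorly oxygenated tissue. Levels below are log2 array signal, so a difference of 1 is a doubling, and such signal compresses large and low differences. The level of one gene cannot be set against that of another.

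The transcripts of the sorted proteins were present in all 6 arrays, except that Itgax was low in the medulla. Ptprc, which encodes CD45, was at 12.31, 11.96 and 11.82 in cortex and at 11.30, 10.96 and 11.42 in medulla (difference -0.80 ± 0.43 SE, adjusted p = 0.415). The groups did not overlap, yet the difference did not pass the test. H2-Ab1, an MHC class II chain, lay between 11.07 and 11.25 in cortex and between 9.81 and 11.66 in medulla. Cd74, the invariant chain that escorts MHC class II, was at 11.35, 10.73 and 11.55 in cortex and at 11.21, 10.08 and 11.87 in medulla. Itgax, which encodes CD11c, fell from 10.23, 9.16 and 10.67 in cortex to 7.25, 7.59 and 7.30 in medulla (-2.64 ± 0.60, adjusted p = 0.0143). This call was lost without cortex 1, cortex 3 or medulla 1, with an adjusted p of up to 0.0661. Of the 6 sort markers, 1 passed.

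Genes of leukocytes and of kidney epithelium gave signal together in every array. The mean level of 21 leukocyte-wide genes was 10.74, 10.12 and 10.17 in cortex and 10.05, 9.36 and 10.70 in medulla. It was lower in the medulla in mice 6 and 7 and higher in mouse 8, and 0 of 21 genes passed (median difference -0.50). The 13 epithelium-wide genes averaged 8.69, 9.37 and 8.83 in cortex and 10.13, 9.78 and 9.65 in medulla, against 7.89 to 8.41 and 8.50 to 9.09 in homeostatic BALB/c cortex and medulla. All 12 that could be tested were higher in the medulla by value, and 2 of them, Pax2 and Pax8, passed. The 20 proximal tubule genes averaged 10.94, 10.76 and 11.72 in cortex and 7.80, 7.58 and 7.91 in medulla, where homeostatic BALB/c cortex and medulla spanned 8.17 to 9.89 and 7.90 to 8.44. Thus the proximal tubule mean was higher in each donor cortex array than in any homeostatic BALB/c array. In homeostatic C57BL/6 cortex and medulla, of the other strain, it spanned 9.38 to 10.92 and 7.64 to 8.69. The range of that healthy cortex overlapped that of donor cortex. The part of tubule RNA in the differences below was not tested. In sorted bulk cells, fewer cells of a type and less RNA per cell cannot be told apart.

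**Figure D1:**
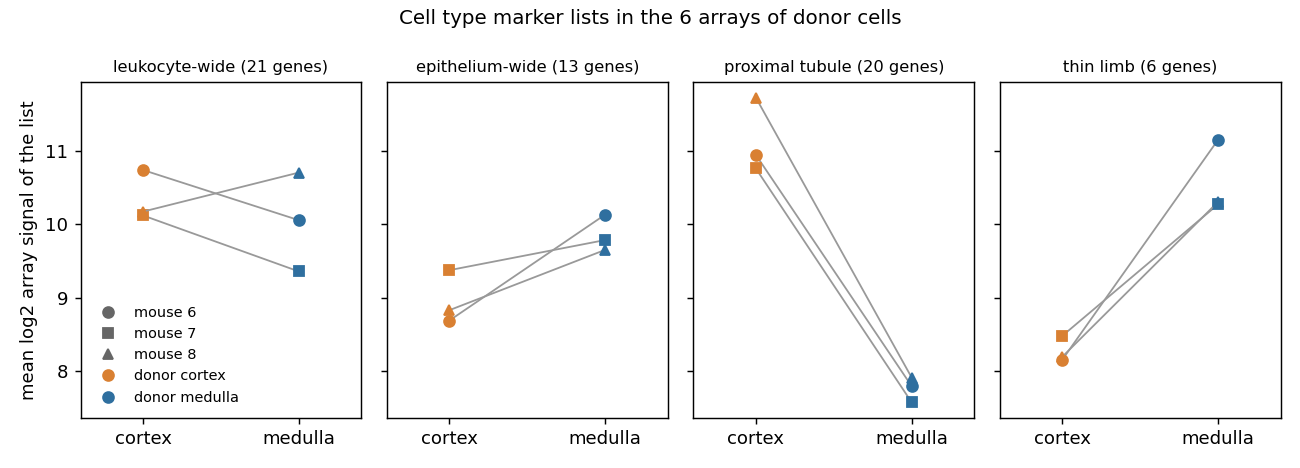
Mean log2 array signal (vertical axis) of 4 lists of marker genes in the 6 arrays of donor cells, with cortex on the left and medulla on the right of each panel. Lines join both regions of a mouse; the proximal tubule mean was 10.76 or more in cortex and 7.91 or less in medulla, and thin limb genes lay higher in the medulla in each.

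Markers of lymphocytes did not pass in either direction. The mean level of 10 T cell genes lay between 6.82 and 7.27 in cortex and between 7.05 and 7.43 in medulla. For 9 genes of natural killer and cytotoxic cells the ranges were 6.84 to 6.88 and 6.83 to 7.06, and for 7 B cell genes 6.36 to 6.55 and 6.44 to 6.62. Of the tested genes of these lists, 0 of 10, 0 of 7 and 0 of 5 passed by limma, where the share of all genes was 2.55% (below). Ifng itself, chosen after its values were seen, was at 7.55, 7.57 and 7.70 in cortex and 7.75, 7.59 and 7.89 in medulla (adjusted p = 0.858).

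Of 14325 genes tested, 365 (2.55%) differed between donor medulla and donor cortex at an adjusted p under 0.05. The medulla was higher in 90 (0.628%) and lower in 275 (1.92%). Of the 365, 351 had groups that did not overlap and the same sign in all 3 mice. Groups that did not overlap were found for 15.9% of all genes tested, the medulla above the cortex in 7.76% and below it in 8.10%. The median difference over all genes was 0.11, against which the medians of gene lists below can be read. Counts of genes that fell or rose in those lists can be read against the 1.92% and 0.628% of all genes. The lists were chosen with earlier results of these data known, so such a reading is a description and tests no list. With a fixed term for mouse over the 28 arrays 348 genes (2.43%) passed, of which 298 were shared. Below, a term for mouse means this fixed term unless a random block is named. With mouse as a random block 489 passed, among them all 365. In a fit of these 6 arrays alone with the fixed term, 69 (0.482%) passed, 3 higher and 66 lower. The fit of these 6 arrays with no such term gave 188, 18 higher and 170 lower. Weighting the arrays by their quality gave 1796, of which 37.6% were lower in the medulla, where 75.3% were lower without weights. Without each array in turn the count lay between 249 and 392. Where a call named below depended on 1 array, that array is given. Losses in the fits of these 6 arrays alone are given for only some of the genes.

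Several target genes of interferon-gamma fell in the medulla. Of the 15 genes of its ligand, receptor and signalling 0 passed by limma, which is near the 2.55% of all genes (median -0.30), and these lists were not tested against each other. Ifngr1, which encodes the ligand-binding chain of the receptor, was at 10.81, 10.92 and 7.81 in cortex and at 11.24, 9.71 and 11.39 in medulla (adjusted p = 0.468). Jak2, the kinase bound to the other chain, was at 10.20, 10.68 and 8.15 in cortex and 8.48, 9.12 and 7.93 in medulla (adjusted p = 0.347). Irf1, an early target that activates many later ones, was at 9.98, 9.94 and 8.21 against 9.78, 7.87 and 8.87 (adjusted p = 0.645). In all 3 genes cortex 3 stood well below the other cortex arrays, and the groups overlapped.

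The 3 chemokines that bind CXCR3, the receptor of activated T cells, fell together. Cxcl9 was at 12.37, 11.88 and 10.04 in cortex and at 8.94, 8.45 and 8.16 in medulla (-2.91 ± 0.57, adjusted p = 0.00422). Cxcl10 was at 11.95, 11.91 and 11.18 in cortex and 7.88, 9.64 and 7.79 in medulla (-3.24 ± 0.64, adjusted p = 0.00456). Cxcl11 was at 9.89, 9.60 and 8.68 in cortex and 7.54, 7.47 and 7.62 in medulla (-1.85 ± 0.35, adjusted p = 0.00263). In each of them every cortex array lay above every medulla array, as in 8.10% of all genes. Each kept its call without any 1 of the 6 arrays. They lost it in the fit of these arrays alone with a term for mouse, and Cxcl9 and Cxcl11 also without that term. Of 9 interferon-inducible chemokines tested, these 3 fell (against 1.92% of all genes) and none rose (median -0.63). Ccl5, a chemokine for T cells and monocytes on the same list, was at 10.91, 11.93 and 8.30 in cortex and 8.71, 9.04 and 8.49 in medulla (adjusted p = 0.215). Ccl2, which draws monocytes, overlapped, with 10.43, 10.15 and 9.18 against 10.55, 9.10 and 9.48.

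Guanylate-binding proteins, large GTPases that coat pathogens and their vacuoles, were lower by value in 8 of 8 tested genes, and 4 fell (median -1.92). Of all genes 1.92% fell, and 5720 of 14325 were lower by value. Gbp2b was at 11.89, 12.05 and 11.29 in cortex and at 9.56, 9.19 and 7.42 in medulla (-3.02 ± 0.64, adjusted p = 0.00786). Gbp5, which also helps to assemble the inflammasome, was at 10.82, 10.64 and 8.09 in cortex and 7.41, 7.66 and 7.04 in medulla (-2.48 ± 0.57, adjusted p = 0.0156). Gbp11 was at 8.91, 9.07 and 7.43 against 6.92, 6.63 and 6.60 (adjusted p = 0.019), and Gbp3 at 10.60, 10.38 and 8.61 against 8.61, 7.82 and 7.71 (adjusted p = 0.0435). These 4 calls rest on single arrays. Gbp2b lost its call without medulla 3 (adjusted p = 0.0658), which holds its lowest value. Gbp5 lost it without cortex 1, cortex 2, medulla 1 or medulla 3. Gbp11 and Gbp3 lost it without cortex 1, cortex 2, medulla 2 or medulla 3. The count of lower genes ran from 0 without medulla 3, and 1 without cortex 1 or cortex 2, to 6 without cortex 3. Gbp4, with 11.63, 12.08 and 10.64 in cortex and 10.18, 9.39 and 6.76 in medulla, did not pass (adjusted p = 0.131). Gbp8, at 11.01, 10.89 and 8.66 in cortex and 8.88, 8.58 and 7.02 in medulla, did not pass either (adjusted p = 0.158). Gbp8 passed with a fixed term for mouse over all arrays (adjusted p = 0.0134). It did not pass with mouse as a random block (adjusted p = 0.0609). Nor did it with the fixed term in the fit of the donor arrays alone (adjusted p = 0.082).

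Of the 4 immunity-related GTPases tested 1 fell, against 1.92% of all genes. Irgm1, which regulates the other members and autophagy, was at 12.12, 12.13 and 11.27 in cortex and at 9.34, 8.95 and 8.52 in medulla (-2.90 ± 0.65, adjusted p = 0.0138). It lost its call without cortex 1, cortex 2 or medulla 3, with an adjusted p of up to 0.0662, and kept it with a term for mouse (adjusted p = 0.00191). Iigp1 was at 12.58, 12.78 and 11.62 in cortex and 11.41, 10.25 and 9.16 in medulla (adjusted p = 0.0749). All 4 members tested were lower by value (median -1.64). Probesets of GTPases with close copies in the genome may share signal.

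The promoters of 5 of these genes are printed because the genes fell together and interferon acts through known motifs; 4 were chosen because they hold a match, and Cxcl9 because it holds none. The sequences are those of RefSeq on build GRCm38.p6, from 250 bases before to 50 bases after the annotated start. The interferon-stimulated response element was searched as GAAA, any 2 bases and GAAA, and the gamma-activated site as TTCNNNGAA, both on either strand, and matches to either motif are in capitals. Of the 21 genes of the chemokine, guanylate-binding and immunity-related families that were tested, 8 fell, and 6 of those 8 have a promoter in the table. The response element was matched in 5 of these 6 genes and in 2 of the 4 other tested genes with a promoter. The 1 of the 6 without it was Cxcl9, and Gbp3 has 2 promoters, of which 1 holds it. The response element was matched in 3.44% of all 32851 promoters of that length, and the gamma-activated site in 8.30%. These shares are by promoter, whereas the counts are by gene and from families listed as interferon targets. Setting them side by side is thus no test of the fall in the medulla. Cxcl9 lies at chr5:92328030-92328329, minus strand, Cxcl10 at chr5:92348840-92349139, minus strand, Gbp2b at chr3:142594597-142594896, plus strand, Gbp5 at chr3:142496684-142496983, plus strand, and Irgm1 at chr11:48871371-48871670, minus strand.
Cxcl9: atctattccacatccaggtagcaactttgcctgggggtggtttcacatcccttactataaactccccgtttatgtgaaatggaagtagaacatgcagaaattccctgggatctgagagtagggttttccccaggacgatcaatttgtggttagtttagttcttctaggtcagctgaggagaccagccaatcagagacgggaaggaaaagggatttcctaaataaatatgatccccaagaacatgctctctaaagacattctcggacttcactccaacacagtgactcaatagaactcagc
Cxcl10: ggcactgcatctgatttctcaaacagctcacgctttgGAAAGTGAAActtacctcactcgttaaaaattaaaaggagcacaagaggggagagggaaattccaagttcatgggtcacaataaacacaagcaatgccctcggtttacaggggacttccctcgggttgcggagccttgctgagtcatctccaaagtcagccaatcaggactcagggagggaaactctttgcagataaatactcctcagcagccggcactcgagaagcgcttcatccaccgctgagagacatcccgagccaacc
Gbp2b: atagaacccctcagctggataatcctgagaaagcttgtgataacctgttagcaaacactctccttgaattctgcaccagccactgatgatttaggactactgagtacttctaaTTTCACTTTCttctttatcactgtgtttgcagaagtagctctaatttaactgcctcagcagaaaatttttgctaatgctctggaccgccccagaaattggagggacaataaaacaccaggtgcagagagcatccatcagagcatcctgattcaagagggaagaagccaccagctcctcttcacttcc
Gbp5: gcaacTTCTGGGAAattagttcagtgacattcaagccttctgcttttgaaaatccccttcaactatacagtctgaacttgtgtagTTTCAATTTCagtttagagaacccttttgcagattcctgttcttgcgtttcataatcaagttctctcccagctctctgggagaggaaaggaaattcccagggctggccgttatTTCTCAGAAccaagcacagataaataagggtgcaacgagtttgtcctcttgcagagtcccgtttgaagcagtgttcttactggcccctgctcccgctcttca
Irgm1: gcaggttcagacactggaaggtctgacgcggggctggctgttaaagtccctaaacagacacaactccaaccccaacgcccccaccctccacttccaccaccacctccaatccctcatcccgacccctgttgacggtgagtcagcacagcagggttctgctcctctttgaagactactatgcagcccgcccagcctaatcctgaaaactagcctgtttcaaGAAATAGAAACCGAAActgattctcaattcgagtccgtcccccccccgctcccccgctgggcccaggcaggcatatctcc
Cxcl9 holds neither motif in this window. In Cxcl10 the capitals mark 1 response element, in Gbp2b 1, in Irgm1 2 that overlap, and in Gbp5 1 response element and 2 gamma-activated sites. Relative to the start, the first base of the response element lies at -213 in Cxcl10, at -137 in Gbp2b and at -165 in Gbp5. A match of letters is a description of the sequence and shows no binding.

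Among the enzymes, complement proteins and receptors that interferon-gamma induces, 4 of 15 fell and none rose (median -0.78). Ubd, a ubiquitin-like protein that tags others for the proteasome, showed a wide gap between the regions. It was at 10.58, 11.17 and 10.24 in cortex and at 6.62, 6.51 and 6.52 in medulla (-4.11 ± 0.44, adjusted p = 3.87e-06). Cfb, complement factor B of the alternative pathway, was at 12.27, 12.08 and 12.47 in cortex and 9.81, 8.55 and 7.86 in medulla (-3.53 ± 0.45, adjusted p = 3.26e-05). Cd274, the inhibitory ligand PD-L1, was at 9.99, 10.05 and 9.55 in cortex and 7.65, 7.34 and 7.33 in medulla (-2.42 ± 0.31, adjusted p = 3.80e-05). The values of Cd274 lay close together within each region. Ubd and Cd274 kept their calls in each setting that tested them and without each array, and Cfb lost its call in the fit of these arrays alone with a term for mouse. C4b, complement component 4, was at 8.18, 7.98 and 8.08 against 7.00, 7.01 and 7.40 (-0.95 ± 0.21, adjusted p = 0.0125), and lost its call without cortex 1, medulla 1 or medulla 2. Proximal tubule genes were higher in the same cortex arrays (10.76 to 11.72, against 7.58 to 7.91 in medulla), and their part in the levels of Ubd, Cfb and Cd274 was not tested.

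**Figure D2:**
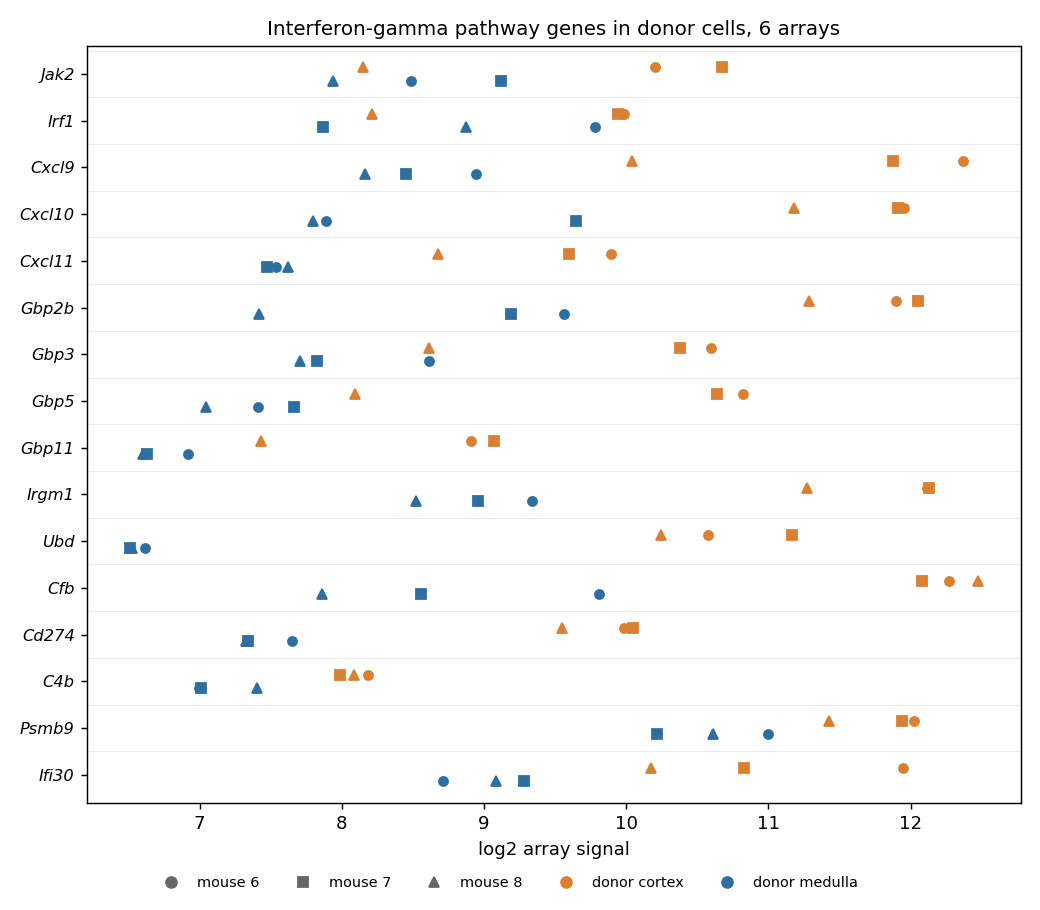
Log2 array signal (horizontal axis) of 16 interferon-gamma pathway genes in the 6 arrays of donor cells; orange marks cortex, blue marks medulla, and the shape gives the mouse. Ubd and Cd274 form 2 tight, separate groups, while cortex of mouse 8 lies left of the other cortex arrays in most chemokine and guanylate-binding genes.

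Of the MHC class I and class II genes, 1 of 14 and 1 of 12 passed, both lower in the medulla. Of all genes 1.92% passed as lower, and 5720 of 14325 were lower by value. For MHC class I presentation all 14 tested genes were lower in the medulla by value, with a median of -0.35, and 1 passed. Psmb9, a subunit of the immunoproteasome that cuts peptides for class I, was at 12.02, 11.94 and 11.42 in cortex and at 11.00, 10.21 and 10.61 in medulla (-1.19 ± 0.25, adjusted p = 0.00786), and lost its call without cortex 1 or medulla 2. Its partner Psmb8 was at 11.19, 11.17 and 10.14 against 9.99, 10.09 and 9.36 and did not pass (adjusted p = 0.142). Psmb8 passed with a fixed term for mouse over all arrays (adjusted p = 0.0255). It did not pass with mouse as a random block (adjusted p = 0.0576). Nor did it with the fixed term in the fit of the donor arrays alone (adjusted p = 0.182). For MHC class II, 1 of 12 genes passed (median -0.16). Ifi30, the thiol reductase that unfolds antigens in the lysosome, fell from 11.95, 10.83 and 10.17 to 8.71, 9.28 and 9.08 (-1.96 ± 0.42, adjusted p = 0.00923), and lost its call without cortex 1 or medulla 1. Ctss, the protease that trims the invariant chain, was at 12.57, 12.17 and 12.30 in cortex and 12.40, 11.48 and 12.31 in medulla (adjusted p = 0.733). Nlrc5 and Ciita, the transactivators of class I and class II genes, differed by 0.42 ± 0.35 and -0.16 ± 0.31 and did not pass (adjusted p = 0.588 and 0.823).

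Of 15 tested costimulatory and checkpoint ligands, Cd274 alone passed (median -0.16). Cd40, through which T cells license dendritic cells, was at 9.48, 8.90 and 9.71 in cortex and 8.00, 8.09 and 8.78 in medulla (-1.08 ± 0.29, adjusted p = 0.0526), just short of the threshold and with groups that did not overlap. Cd86 overlapped, at 10.96, 10.10 and 9.65 against 9.01, 7.85 and 10.46. Of 22 type I interferon antiviral genes, 0 passed by limma (median -0.38). The sign differed between mice there, with list medians of -0.67 and -0.54 in mice 6 and 7 and 0.29 in mouse 8. Zbp1, a sensor of nucleic acids, was the nearest to the threshold at 10.26, 9.89 and 9.09 in cortex and 8.01, 8.74 and 8.29 in medulla (-1.40 ± 0.42, adjusted p = 0.0842).

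Of 9 tested markers shared by dendritic cells, 3 fell and none rose (median -0.19). Kmo, an enzyme of the kynurenine pathway, was at 9.22, 9.81 and 10.02 in cortex and at 6.27, 6.58 and 6.80 in medulla (-3.13 ± 0.55, adjusted p = 0.00137). Dpp4, the peptidase CD26, was at 10.48, 10.28 and 10.22 in cortex and 7.45, 7.99 and 7.18 in medulla (-2.79 ± 0.54, adjusted p = 0.00389). Both kept their calls without each array, but Dpp4 lost its call in the fit of these arrays alone with a term for mouse. The third was Itgax. Kmo and Dpp4 are also made by kidney tubules, and what share of their signal came from there was not tested.

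Markers of single dendritic cell subsets mostly did not pass. Of 10 genes of type 1 conventional dendritic cells, which cross-present antigen to CD8 T cells, 1 fell (median -0.08). This was Cadm1, an adhesion molecule, at 11.94, 10.95 and 11.99 in cortex and 10.59, 10.45 and 11.08 in medulla (-0.92 ± 0.24, adjusted p = 0.0434). Its groups overlapped, and it lost its call without cortex 1, cortex 3, medulla 1 or medulla 2. Clec9a, the receptor by which these cells detect dead cells, was at 11.12, 9.63 and 7.13 in cortex and between 6.39 and 7.35 in medulla (adjusted p = 0.279), with a wide spread among the cortex arrays. Of 8 genes of type 2 conventional dendritic cells 0 passed (median 0.10), among them Mgl2, a lectin, at 9.63, 8.52 and 9.24 against 6.82, 7.25 and 8.02 (adjusted p = 0.12).

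Of 16 tested macrophage genes, 2 rose (against 0.628% of all genes) and none fell (median 0.24). Apoe, the lipid carrier, was at 11.48, 11.35 and 11.15 in cortex and at 12.31, 11.98 and 13.13 in medulla (1.15 ± 0.23, adjusted p = 0.00413), and held without each array. Mrc1, the mannose receptor, was at 11.17, 11.20 and 9.16 in cortex and 12.35, 11.59 and 12.24 in medulla (1.55 ± 0.38, adjusted p = 0.0241). Its call was lost without cortex 3, medulla 1 or medulla 3, and with a term for mouse (adjusted p = 0.0708). Apoe and Mrc1 both lost their calls in fits of these 6 arrays alone. C1qa and Adgre1, 2 defining macrophage genes chosen after their values were seen, did not pass. C1qa, of the complement component C1q, was at 11.74, 10.66 and 11.06 against 11.62, 9.86 and 11.98, and Adgre1, a surface receptor of macrophages, at 11.36, 10.55 and 10.52 against 10.77, 9.78 and 11.76.

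Of 8 monocyte genes, 1 fell and 1 rose, against 1.92% and 0.628% of all genes. Ccr2, the receptor that brings monocytes out of the bone marrow, was at 11.98, 11.43 and 10.86 in cortex and at 9.69, 7.94 and 9.89 in medulla (-2.25 ± 0.50, adjusted p = 0.0129). It lost its call without cortex 1 or medulla 2. F13a1, a transglutaminase of monocytes and some macrophages, was at 6.94, 6.72 and 7.35 in cortex and 8.07, 8.04 and 10.79 in medulla (1.97 ± 0.45, adjusted p = 0.0153), with medulla 3 far above the rest. It lost its call without cortex 1 or cortex 2. Plac8, high in inflammatory monocytes, spread from 7.77 to 11.53 in cortex and from 6.52 to 8.74 in medulla and did not pass (adjusted p = 0.324).

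Most genes of the proximal tubule list fell. Of 20 measured, 17 fell (85% of the list, against 1.92% of all genes), and none rose (median -3.68). The list medians were -3.30, -2.86 and -4.02 in mice 6, 7 and 8. Without cortex 3 the count of lower genes was 12, the fewest for any array left out, and it was 8 in the fit of these arrays alone with a term for mouse. Cyp2e1, a cytochrome P450, was at 12.59, 12.82 and 12.97 against 6.69, 6.39 and 6.87 (-6.15 ± 0.78, adjusted p = 3.22e-05). Kap, the androgen-regulated kidney protein, was at 12.59, 12.51 and 11.96 against 6.30, 5.97 and 6.52. Lrp2 and Cubn encode megalin and cubilin, the pair of receptors that retrieve filtered protein. Lrp2 was at 12.32, 12.29 and 12.82 in cortex and 7.18, 7.16 and 7.53 in medulla (adjusted p = 1.14e-05). Cubn was at 11.21, 11.10 and 11.25 in cortex and 6.41, 6.32 and 6.37 in medulla (-4.82 ± 0.39, adjusted p = 5.39e-08). Within each region these values lay close together, and the regions differed by more than 4 log2 units in every mouse.

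Other members of the list had differences of -5.37 (Acsm2), -5.10 (Slc5a12, a lactate transporter), -5.04 (Slc7a13) and -5.03 (Slc27a2, a fatty acid transporter), and each kept its call without any 1 array. Gatm, which makes the precursor of creatine, fell by less, from 12.39, 12.13 and 12.50 to 11.18, 9.63 and 11.85 (-1.45 ± 0.33, adjusted p = 0.0156), and lost its call without cortex 1, cortex 3 or medulla 2. Aqp1, the water channel of proximal tubule and descending thin limb, went against the list, at 9.21, 8.82 and 10.07 in cortex and 11.29, 11.14 and 11.20 in medulla (adjusted p = 0.0551).

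The lowest differences of the array included genes outside that list. Slc13a1, the sulfate transporter of the brush border, was at 11.97, 11.87 and 11.67 in cortex and at 5.46, 5.14 and 5.20 in medulla (-6.57 ± 0.90, adjusted p = 8.73e-05). Ugt2b38, a glucuronosyltransferase, had a difference of -6.46, Spink1, a trypsin inhibitor, of -5.88, and Keg1 of -5.82. The differences were -5.78 for Cyp4a12a, -5.17 for Mogat1, -5.12 for Calml4 and -5.06 for Ces1f. Each of these kept its call without any 1 array. Their medulla values lie low on the scale, where signal is compressed.

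**Figure D3:**
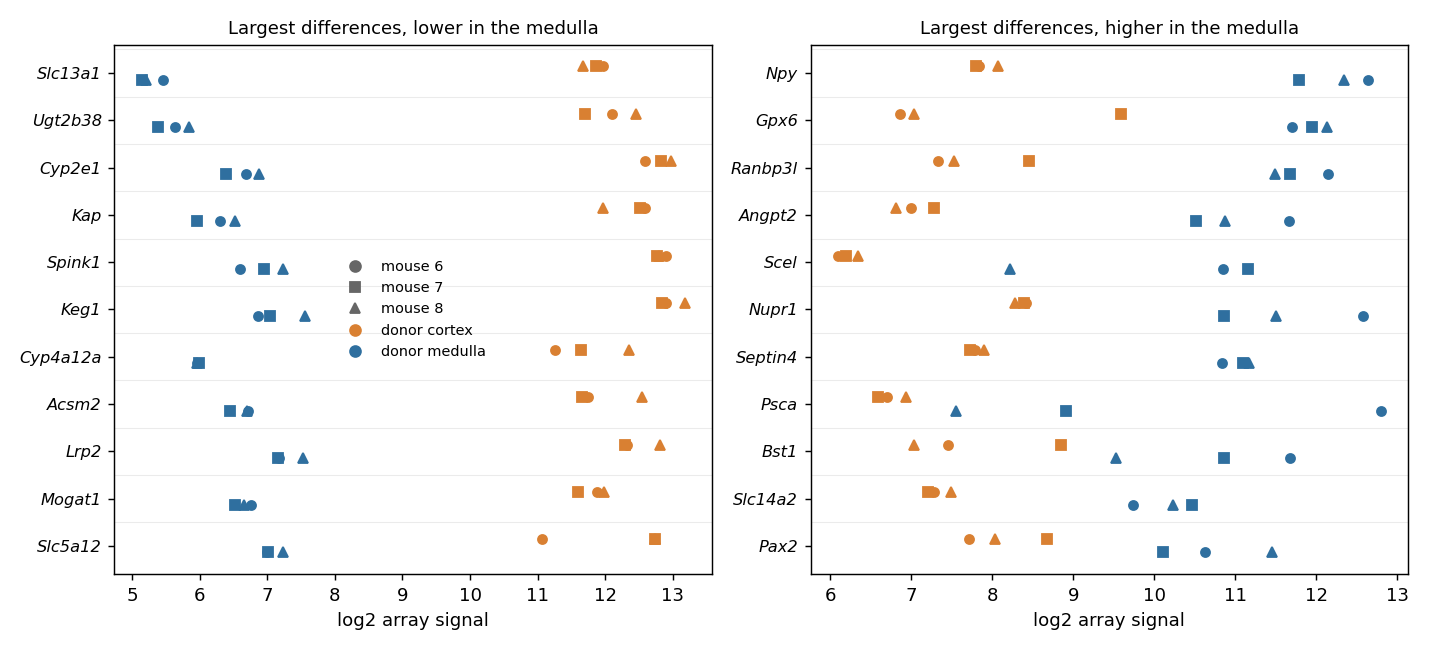
Log2 array signal (horizontal axis) in the 6 arrays of donor cells for 11 of the genes with the largest falls (left) and 11 with the largest rises (right) in the medulla; colour gives the region and shape the mouse. Cortex and medulla do not overlap in any of these genes, and Psca in medulla spreads from 7.54 to 12.80.

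Of 17 genes of fatty acid oxidation, 5 fell and none rose (median -0.82). The omega-hydroxylase Cyp4a10 was at 11.48, 10.04 and 11.10 in cortex and at 6.29, 6.05 and 6.55 in medulla (-4.58 ± 0.45, adjusted p = 1.34e-06), and Cyp4a14 at 10.06, 11.80 and 12.69 against 6.78, 6.70 and 7.02 (-4.68 ± 0.46, adjusted p = 1.54e-06). Signal may be shared among the close copies of the Cyp4a family. Pex11a, which drives division of peroxisomes, was at 9.87, 9.63 and 10.85 against 6.40, 7.42 and 6.55 (-3.32 ± 0.41, adjusted p = 2.55e-05). Cyp4a14 and Pex11a lost their calls in the fit of these arrays alone with a term for mouse, and Cyp4a10 kept its call there. Ehhadh, a peroxisomal enzyme, and Ppara, the receptor that switches on this programme, fell by 2.27 and 1.21 (adjusted p = 0.0159 and 0.0184). Ehhadh lost its call without cortex 1, cortex 2, medulla 1 or medulla 3, and Ppara without cortex 2, cortex 3, medulla 1 or medulla 3. The 21 tested genes of the respiratory chain had a median of -0.03 and 0 passed by limma.

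Of 15 tested genes of lipid handling and efflux, 2 fell, Fabp7 and Lipa, and 1 rose, Apoe (median 0.18, with 10 positive and 5 negative). Fabp7, a fatty acid binding protein, was at 12.33, 11.54 and 10.53 in cortex and 7.22, 7.00 and 6.97 in medulla (-4.41 ± 0.26, adjusted p = 4.01e-10), the smallest adjusted p of the genes named here. Lipa, the lysosomal lipase, fell from 12.03, 11.93 and 12.14 to 9.81, 10.38 and 9.68 (adjusted p = 0.0283). It lost its call with a term for mouse (adjusted p = 0.0715) and without cortex 1, cortex 2, cortex 3, medulla 1 or medulla 3. Of 18 scavenger and phagocytic receptors, 1 fell, Cd36, and 1 rose, Mrc1 (median 0.28). Cd36, a scavenger receptor and fatty acid transporter of macrophages, endothelium and tubules, was at 12.52, 11.71 and 12.03 in cortex and at 8.72, 7.80 and 7.27 in medulla (-4.16 ± 0.45, adjusted p = 4.04e-06). Of 15 integrin genes 2 fell, Itgax and Itgb8 (median -0.62). Itgb8, the integrin chain with which cells activate TGF-beta, was at 11.89, 11.62 and 11.41 against 7.84, 10.19 and 7.31 (-3.20 ± 0.59, adjusted p = 0.00226). Itgb8 lost its call in fits of these arrays alone, with or without a term for mouse.

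Of 10 genes of tubular injury, 1 fell, against 1.92% of all genes (median -0.31). Havcr1, which encodes KIM-1, a receptor of injured proximal tubules, was at 8.38, 9.50 and 9.04 in cortex and at 6.45, 6.38 and 6.29 in medulla (-2.60 ± 0.53, adjusted p = 0.0061). Vcam1, an adhesion molecule, was at 10.34, 10.86 and 7.90 against 7.02, 7.54 and 7.10 and did not pass (adjusted p = 0.0685). Lcn2, a marker of distal injury, was at 10.59, 11.27 and 9.59 against 11.74, 10.91 and 10.67 (adjusted p = 0.431), and its groups overlapped.

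Genes of some tubule segments beyond the loop of Henle were also among those that fell. Of 14 genes of principal cells of the collecting duct, 1 rose and none fell (median -0.12). Of 8 genes of the distal convoluted and connecting tubule, 3 fell (median -2.28). S100g, a calcium-binding protein, was at 12.37, 13.17 and 12.52 in cortex and at 8.43, 8.67 and 8.00 in medulla (-4.32 ± 0.50, adjusted p = 1.14e-05). Calb1, calbindin, was at 9.41, 11.88 and 11.59 against 6.43, 7.13 and 6.57 (adjusted p = 0.000766), and Trpv5, the calcium channel, at 8.76, 10.03 and 10.31 against 7.40, 7.27 and 7.54 (adjusted p = 0.00527). Cortex 1 was the lowest of the cortex arrays in all 3. Slc12a3, the thiazide-sensitive cotransporter, reached 10.41 in medulla 3 and did not pass (adjusted p = 0.0783). Of 12 genes of intercalated cells, which secrete acid or base, 2 fell (median -0.56). These were Slc26a4, the exchanger pendrin, at 8.37, 10.19 and 9.03 against 6.27, 6.28 and 6.41 (-2.88 ± 0.37, adjusted p = 3.85e-05), and Atp6v1b1, a proton pump subunit (-1.77 ± 0.33, adjusted p = 0.00232).

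Of 5 thin limb genes tested, 3 rose (against 0.628% of all genes) and none fell (median 2.00). In all 5 the medulla lay above the cortex without overlap, as in 7.76% of all genes. Slc14a2, the urea transporter of thin limb and inner medullary collecting duct, was at 7.28, 7.21 and 7.49 in cortex and at 9.74, 10.47 and 10.23 in medulla (2.82 ± 0.21, adjusted p = 1.87e-08). Bst1, an ectoenzyme that uses NAD, was at 7.45, 8.85 and 7.03 against 11.67, 10.86 and 9.53 (2.91 ± 0.61, adjusted p = 0.00725), and Cryab, a small heat shock protein, at 9.14, 10.11 and 9.32 against 11.75, 11.48 and 11.35 (2.00 ± 0.46, adjusted p = 0.015). Bst1 lost its call without medulla 1, and Cryab without cortex 1, cortex 3 or medulla 1. Without medulla 1 only Slc14a2 of this list passed. Of 10 thick ascending limb genes 1 rose and 1 fell (median 0.99). Those were Ppp1r1a (2.66 ± 0.70, adjusted p = 0.0402) and the kinase Wnk1 (-1.01 ± 0.27, adjusted p = 0.0434), and each kept its call without 1 of the 6 arrays and lost it without any other. Slc12a1, the loop-diuretic target, was at 7.87, 11.49 and 10.61 in cortex and 12.29, 13.29 and 12.95 in medulla (adjusted p = 0.323). Umod, uromodulin, was at 11.79, 13.01 and 12.80 against 13.32, 13.60 and 13.32 (adjusted p = 0.755).

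Beyond these segments, the genes with the largest rises were of mixed kinds. Npy, neuropeptide Y, was at 7.84, 7.80 and 8.07 in cortex and at 12.63, 11.79 and 12.34 in medulla (4.35 ± 0.49, adjusted p = 6.99e-06). Angpt2, the ligand that loosens vessels by opposing angiopoietin 1, was at 7.00, 7.28 and 6.82 in cortex and 11.66, 10.52 and 10.88 in medulla (3.99 ± 0.42, adjusted p = 3.03e-06). Septin4 was at 7.78, 7.73 and 7.90 against 10.84, 11.09 and 11.17 (3.23 ± 0.27, adjusted p = 1.13e-07). Pax2, the transcription factor of the developing nephron and collecting system, was at 7.71, 8.68 and 8.03 against 10.63, 10.11 and 11.46 (2.59 ± 0.36, adjusted p = 9.04e-05). Its relative Pax8 rose by 1.48 (adjusted p = 0.00812) and lost its call without cortex 1 or medulla 1. Angpt2, Pax2 and Pax8 lost their calls in the fit of these arrays alone with a term for mouse, and Npy and Septin4 kept theirs. These rises accompany epithelium-wide genes at 9.65 to 10.13 in medulla, and the part of tubule RNA in them was not tested.

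Nupr1, a stress-induced nuclear protein, was at 8.41, 8.39 and 8.27 in cortex and at 12.58, 10.86 and 11.51 in medulla (3.29 ± 0.60, adjusted p = 0.00186). Ranbp3l was at 7.33, 8.46 and 7.52 against 12.14, 11.67 and 11.49 (4.00 ± 0.59, adjusted p = 0.000168). Scel, sciellin of cornified epithelium, was at 6.09, 6.19 and 6.34 against 10.85, 11.15 and 8.22 (3.87 ± 0.63, adjusted p = 0.000574). Lrrc31 rose by 2.46 and the sulfotransferase Chst9 by 2.35 (adjusted p = 0.00232 and 0.000568). Gpx6, a glutathione peroxidase, rose by 4.10 (adjusted p = 0.0153), with cortex 2 at 9.59 well above the other cortex arrays at 6.86 and 7.03, and lost its call without cortex 1, cortex 3 or medulla 3. Of 8 urothelial genes 2 rose (median 0.59). They were Upk3b, a uroplakin (0.91 ± 0.18, adjusted p = 0.0051), and Psca, a surface antigen, which was at 6.70, 6.59 and 6.93 in cortex and at 12.80, 8.91 and 7.54 in medulla. The Psca call (adjusted p = 0.0156) was lost without cortex 1 or cortex 2 and with a term for mouse (adjusted p = 0.0689).

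Of the genes of osmotic stress, 9 of 12 were higher in the medulla by value, where 8605 of all 14325 genes were. Of 12 tested, 1 rose and none fell (median 0.94), with list medians of 1.33, 0.90 and 0.59 in the 3 mice. The 1 that rose was Slc14a2, also on the thin limb list, and the part of tubule RNA in these values was not tested. Slc5a3, the inositol transporter, was at 9.14, 10.93 and 7.23 in cortex and 12.46, 12.81 and 12.33 in medulla (3.43 ± 1.02, adjusted p = 0.0848). Slc6a12, the betaine transporter, was at 7.26, 7.72 and 8.18 against 8.46, 9.62 and 8.66 (adjusted p = 0.106). Neither group pair overlapped. Nfat5, the transcription factor of this response, did overlap, at 8.97, 9.54 and 8.57 against 10.75, 10.65 and 8.80 (adjusted p = 0.354). Of 26 genes of hypoxia and glycolysis, 1 rose, Angpt2, and 1 fell, Ndrg1 (median -0.07). Ndrg1 fell by 2.05 (adjusted p = 0.0323) and kept its call only without medulla 2.

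Apart from vascular and neural signalling and complement, the lists in this paragraph held 0 or 1 called gene. Such counts are too few to set apart from the 2.55% called among all genes. Of lists not treated here, vascular and neural signalling had 3 of 15 genes higher, against 0.628% of all genes. Complement had 2 of 14 lower, against 1.92%. No gene passed by limma among 10 of migration and maturation, 14 cytokines, 17 pattern recognition receptors, or 20 Fc receptors and adaptors. The same held for 22 immediate early genes, 16 of the unfolded protein response, 17 of apoptosis, 11 of heme and iron and 14 of matrix remodelling. The medians of these lists lay between -0.29 and 0.26. Of 28 cell cycle genes 1 fell (median -0.43). This was Bub1b, a mitotic checkpoint kinase, at 10.10, 8.75 and 9.16 in cortex and 8.21, 7.41 and 6.92 in medulla (-1.82 ± 0.41, adjusted p = 0.0124), and it lost its call without cortex 1 or medulla 3. Mki67, which marks cycling cells, was at 10.77, 9.57 and 8.56 against 9.44, 8.27 and 8.53 (adjusted p = 0.406). Ctsk, a collagen-cutting protease, was the 1 lysosomal protease of 16 that fell (-1.02 ± 0.23, adjusted p = 0.0156), and lost its call without cortex 1, cortex 2 or medulla 1. Cxcl12, the chemokine that retains cells in tissues, fell by 0.63 (adjusted p = 0.0446) and lost its call without any 1 of the arrays.

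**Figure D4:**
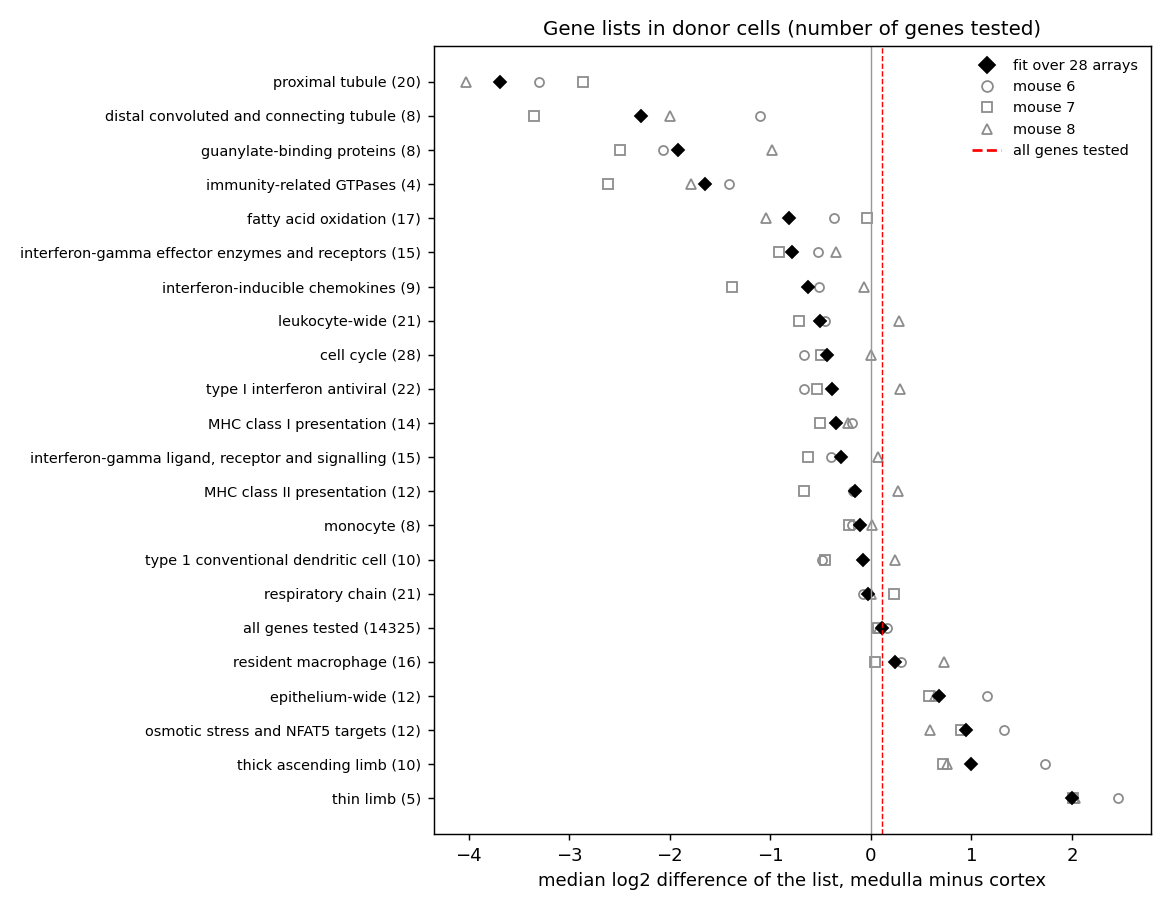
Median log2 difference, medulla minus cortex (horizontal axis), of 21 gene lists and of all genes tested in donor cells; black diamonds come from the fit, open symbols from each mouse, and the number of genes is in parentheses. Proximal tubule genes lie lowest at -3.68 and thin limb genes highest at 2.00, and the dashed line marks the median of all genes, 0.11.

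The next comparison asked whether the regional difference of donor cells was also that of the same strain's cells in healthy kidneys. Of 14325 genes, 65 (0.454%) passed a test of donor minus homeostatic BALB/c regional difference, 57 lower (0.398%) and 8 higher (0.0558%). The median regional difference of the 57 was -3.22 in donor cells and -0.06 in BALB/c cells, and 54 of them had also passed in donor cells. Homeostatic BALB/c medulla 1 was unlike its group, its correlation with the group's other arrays averaging 0.788, against 0.848 to 0.928 for the other arrays of this comparison. Without it 51 genes passed, and without BALB/c cortex 1 108 did. The comparison also sets digested grafts against digested healthy kidneys, so tubule RNA in the samples and graft state cannot be told apart in it.

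Interferon genes were among those that differed. Ubd was at 10.66 ± 0.47 and 6.55 ± 0.06 in donor cortex and medulla (SD, n = 3) and at 6.53 ± 0.12 and 6.69 ± 0.18 in BALB/c cortex and medulla (SD, n = 4). The donor regional difference was lower by 4.28 ± 0.58 SE (adjusted p = 0.000323), and donor medulla lay close to both BALB/c groups. Cd274 was at 9.86 ± 0.27 and 7.44 ± 0.18 in donor cells and at 8.04 ± 0.14 and 8.19 ± 0.38 in BALB/c cells (adjusted p = 0.00237). Both held without each of the 14 arrays. Of the chemokines, guanylate-binding proteins and immunity-related GTPases, 0 passed this comparison, and their median regional differences were -0.63, -1.92 and -1.64 in donor and -0.12, -0.94 and 0.32 in BALB/c cells.

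Genes of fatty acid metabolism and of the proximal tubule also differed. Fabp7 was at 11.47 ± 0.90 and 7.06 ± 0.14 in donor cortex and medulla and at 7.29 ± 0.18 and 7.17 ± 0.12 in BALB/c cells (adjusted p = 2.03e-07). Cubn was at 11.19 ± 0.07 and 6.37 ± 0.04 against 6.87 ± 0.31 and 6.66 ± 0.07 (adjusted p = 3.01e-05), and Cyp4a10 at 10.87 ± 0.75 and 6.30 ± 0.25 against 6.81 ± 0.25 and 7.02 ± 0.47 (adjusted p = 9.97e-05). Thus donor cortex was the only high group of the 4 for these genes. The same held for Cyp4a14 (adjusted p = 0.000214), Slc5a12 (adjusted p = 0.0113) and Pex11a (adjusted p = 0.00237). Of the 20 proximal tubule genes 5 passed, and of the 17 of fatty acid oxidation 3. Host cells are not among these 4 groups. In host cells of the same grafts the median regional difference of proximal tubule genes was -3.71, near the -3.68 of donor cells. For fatty acid oxidation it was -0.20, against -0.82 in donor cells.

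In the other direction, 3 genes rose more in donor medulla than in BALB/c medulla and held without each array. Angpt2 was at 7.03 ± 0.24 and 11.02 ± 0.58 in donor cortex and medulla and at 7.30 ± 0.15 and 7.42 ± 0.25 in BALB/c cells (3.87 ± 0.55, adjusted p = 0.000623). Slc14a2 was at 7.33 ± 0.14 and 10.15 ± 0.37 against 7.87 ± 0.13 and 8.21 ± 0.38 (adjusted p = 3.01e-05), and Septin4 at 7.80 ± 0.09 and 11.03 ± 0.18 against 8.19 ± 0.12 and 8.92 ± 0.54 (adjusted p = 0.000625). Donor medulla was the highest of the 4 groups in each.

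The last comparison asked whether host cells in the same grafts had another regional difference than donor cells. This held for 11 of 14325 genes (0.0768%), 6 higher (0.0419%) and 5 lower (0.0349%) in donor cells. With a fixed term for mouse over the 28 arrays 5 passed, of which 3 were shared. With mouse as a random block 18 passed, among them all 11. In the fit of these 12 arrays alone with the fixed term 0 passed by limma, with 763 genes at an unadjusted p under 0.05. Leaving out single arrays gave from 5 (without donor cortex 2) to 35 (without host medulla 3). In Gatm, Lcp1 and Dab2 the donor medulla was high and the host medulla low. Gatm was at 12.34 ± 0.19 and 10.89 ± 1.14 in donor cortex and medulla and at 12.15 ± 0.29 and 6.06 ± 0.25 in host cells (4.64 ± 0.47, adjusted p = 1.96e-05). Lcp1, the actin-bundling protein of leukocytes, was at 12.79 ± 0.12 and 12.26 ± 0.78 against 12.42 ± 0.40 and 8.97 ± 0.43 (2.92 ± 0.37, adjusted p = 0.000485). Dab2, an endocytic adaptor of macrophages and proximal tubule, was at 12.35 ± 0.02 and 12.15 ± 0.52 against 11.98 ± 0.58 and 9.21 ± 0.75 (2.58 ± 0.40, adjusted p = 0.00663). All 3 held without each of the 12 arrays and lost their calls in fits of these groups alone. The 21 leukocyte-wide genes averaged 9.36 to 10.70 in donor medulla and 8.47 to 9.41 in host medulla, and the part of this in the Lcp1 difference was not tested.

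None of these interferon genes passed in the comparison with host cells. Regional differences in host cells were -3.57 for Cxcl9, -3.19 for Cxcl10, -3.18 for Ubd, -3.87 for Cfb and -1.46 for Cd274, and 0 of the 51 entries tested in the 5 lists of interferon-gamma genes passed. The median regional differences of donor and host cells were -0.63 and -1.20 for the chemokines, -1.92 and -2.01 for the guanylate-binding proteins and -1.64 and -2.18 for the immunity-related GTPases. A difference that misses the threshold with 3 arrays a group does not show that donor and host cells were alike. Donor and host cells were sorted from the same grafts and are not independent of each other. MHC class II genes had median differences of -0.16 in donor and -1.26 in host cells, and 0 of 12 passed. Leukocyte-wide genes had medians of -0.50 and -1.27, and their part in the class II values was not tested.

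**Figure D5:**
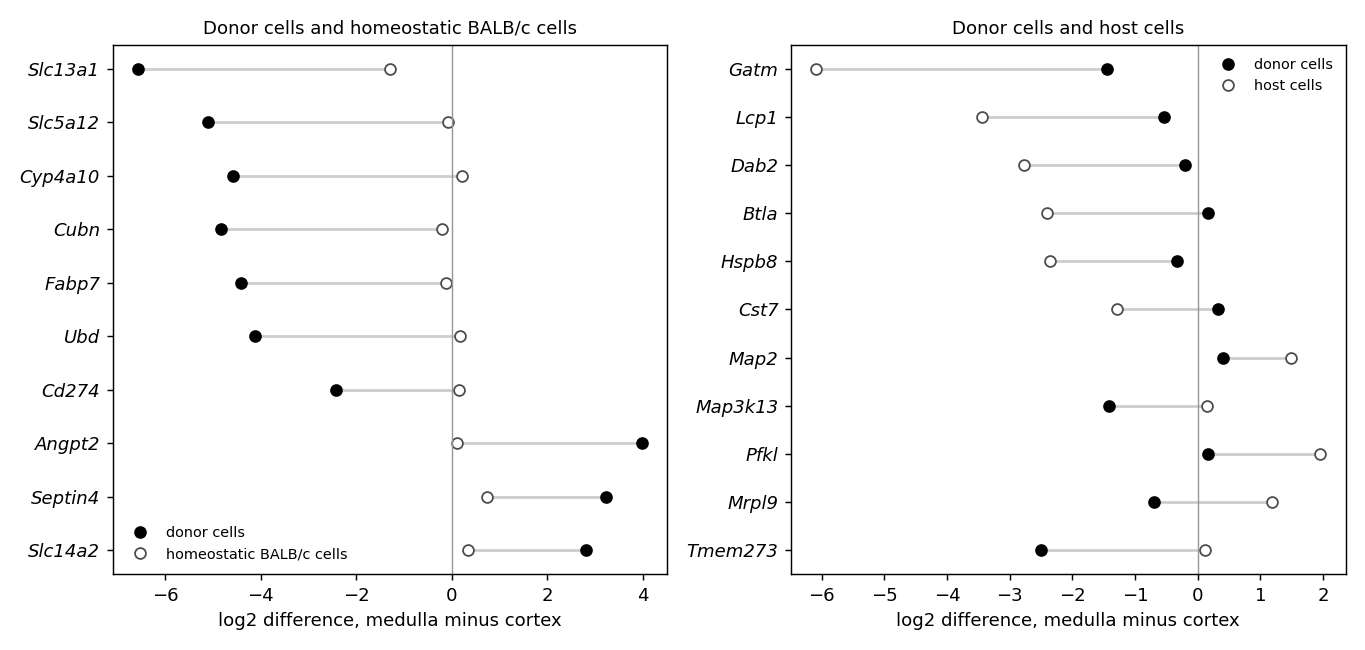
Log2 difference, medulla minus cortex (horizontal axis), in donor cells (filled) and in homeostatic BALB/c cells (open, left) or host cells (open, right) for genes named in each comparison. For the 10 genes plotted on the left, BALB/c differences run from -1.29 in Slc13a1 to 0.73 in Septin4; on the right, Gatm is at -1.45 in donor and -6.09 in host cells.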

How the data were processed

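Log2 expression values from 28 Affymetrix arrays were used as deposited. Per the submitters' processing notes the authors obtained them with RMA in the oligo package, so the log2 values are background-corrected, quantile-normalised and summarised, with no version named in those notes. Per the labels' protocols, RNA was amplified before hybridisation, which can add spread between arrays. RMA and quantile scaling compress fold changes, and detection calls were not analysed here. Of 22549 probesets, 20646 had 1 gene symbol, 551 several and 1352 none; only the first were named, by the brightest probeset of a gene. Genes above an array's 40th percentile in at least 3 arrays were tested (14325 of 19272).

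The model was limma 3.58.1 in R 4.3.3, with 1 mean per group over all 28 arrays, 2-sided tests, Benjamini-Hochberg adjustment over all genes and a threshold of 0.05. Every adjusted p is from this fit unless a term for mouse or a left-out array is named. Mouse numbers in the labels pair both regions: residual correlations were 0.0455, 0.235 and 0.185 within mice 6, 7 and 8. Alternatives were a mouse term (fixed or random), other filters, scalings, variance models, weights, samples and probesets, and leaving out each array. Named genes were the 15 highest and 15 lowest passing differences without overlap, up to 8 members of each list with the smallest adjusted p, the sort markers, and the 6 highest and 6 lowest of each comparison of differences; some were left out for length. The 57 lists and their members were chosen with earlier results of these data known. The script was tested on simulated data. The small number of arrays limits the precision.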

Additional observations from a re-analysis of the deposited data

Results flagged for a closer look

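Of the genes named, 22 passed limma's test of donor minus BALB/c regional difference. On the log2 scale this value was negative for the interferon genes Ubd (-4.28) and Cd274 (-2.58) and for Slc13a1 (-5.28), which is on no list here, and the proximal tubule genes Slc5a12 (-5.02), Cubn (-4.61), Lrp2 (-4.37) and Acsm2 (-3.56). The fatty acid genes Cyp4a10 (-4.79), Cyp4a31 (-4.74), Cyp4a14 (-4.67), Fabp7 (-4.29), Pex11a (-3.42) and Cd36 (-2.67) were negative as well. So were the intercalated cell genes Slc26a4 (-2.56) and Atp6v1b1 (-2.04) and the kinase Map3k13 (-1.33). It was positive for Angpt2 (3.87), Septin4 (2.50), Slc14a2 (2.49), Cd300ld (2.46), Chst9 (2.29) and Pax2 (2.22). With a fixed term for mouse over the 28 arrays, Slc13a1 (adjusted p = 0.0571), Cd36 (0.0964), Pax2 (0.155), Cd300ld (0.104) and Map3k13 (0.0559) no longer passed. With mouse as a random block 103 genes passed, among them all 65 of the main fit. Calls of Slc13a1, Acsm2, Cd36, Atp6v1b1, Pax2, Chst9 and Cd300ld were lost without at least 1 of the 14 arrays, Slc13a1 in all but 1 such fit.

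Against host cells the donor regional difference was higher for Gatm (4.64), Lcp1 (2.92), Dab2 (2.58), Btla (2.57), Hspb8 (2.02) and Cst7 (1.62) and lower for Tmem273 (-2.61), Mrpl9 (-1.87), Pfkl (-1.79), Map3k13 (-1.56) and Map2 (-1.08). With a fixed term for mouse over the 28 arrays Gatm, Lcp1 and Dab2 passed and the other 8 did not, Hspb8 by little (adjusted p = 0.0509). With mouse as a random block all 11 passed. In the fit of the groups compared alone with the fixed term 0 passed by limma, with 763 genes at an unadjusted p under 0.05.

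In 3 of 44 groups of 4 arrays examined, 1 array lay far from the rest, where chance flags about 1 in 20. Cd274 was at 8.24 in BALB/c cortex 2, with the others between 7.95 and 7.98. Cyp4a14 was at 7.47 in BALB/c cortex 4, with the others between 7.21 and 7.23. Fabp7 was at 7.02 in BALB/c cortex 1, with the others between 7.37 and 7.38.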

How the results depend on the processing

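The count of genes that differed between donor medulla and cortex was 365. It was 69 with a replicate block for mouse in a fit of these 6 arrays alone, 188 in that fit without the block, 237 with a strict filter on dim genes and 1796 with array weights. Leaving out 1 array gave 249 to 392. Against BALB/c cells the count of 65 became 27 with that block and only its own arrays, 103 with mouse as a random block and 30 with the strict filter, and 46 to 108 without single arrays. Against host cells the count of 11 became 5 with a fixed replicate block over 28 arrays, 0 with that block and only its own arrays (763 genes at an unadjusted p under 0.05), 18 with mouse as a random block, 7 with the strict filter, 61 with array weights and 1 in a fit of the groups compared, and 5 to 35 without single arrays. The strict filter tests fewer genes and the fits of the groups compared use fewer arrays; for the others the cause was not tested. Of 82 named genes that passed in donor cells, 78 kept their call with the fixed block over 28 arrays, 51 without each array in turn and 25 in each of the 11 other settings, and 0 changed direction. Of 969 list medians under alternatives, 33 moved by more than the SD between mice. The array signal is compressed near background, so differences of genes dim in 1 region are likely understated.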

Other observations

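Probesets without a single gene symbol were tested apart from the genes. Of 430 with several symbols 3 were higher and 6 lower in donor medulla (2.09%), and of 989 with no symbol 2 were higher and 18 lower (2.02%), close to the 2.32% of the 15387 tested probesets with 1 symbol.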
